A study of Equus caballus with 13 samples.

Results

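Glycosaminoglycans are long sugar chains, and the enzymes that build and sulfate them are the subject of these data. A list of 38 genes encoding such enzymes was matched by symbol to 2 tables of RNA kinetics from horse chondrocytes. Of these, 34 were listed among the 11331 genes of the tables. A total of 33 were in both tables, and HS6ST2 was in the table for the sex comparison only. B3GALT6, CHST13, UST and HAS3 had no row under these symbols and were not analysed here.

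Cartilage resists compression because its proteoglycans, above all aggrecan, carry dense arrays of sulfated chains that hold water. Chondroitin, dermatan and heparan sulfate chains start on a serine of a core protein through a shared linkage of xylose, galactose and glucuronic acid. The chain is then extended by polymerases that add alternating sugars, and sulfotransferases place sulfate groups on chosen positions. Hyaluronan differs from the others in being made at the plasma membrane, without a core protein and without sulfate. All of these routes use UDP-glucuronate, together with UDP-N-acetylgalactosamine for chondroitin and dermatan and UDP-N-acetylglucosamine for heparan and hyaluronan, and sulfation uses the donor PAPS.

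The cells were wild-type chondrocytes of horse (Equus caballus) cartilage, cultured for 2 days before a 4 h exposure to the uridine analogue 4-thiouridine (4sU), which marks RNA made during that time. There were 5 old female, 5 young female and 3 young male samples, with ages in years not given. Each table held the authors' single value per gene and group, 1 table for old against young female cells and 1 for young male against young female cells. No values per sample were used, so no SD, n or test accompanies any value below, depth is unknown, and every ratio is a description of group estimates. Both ratios share the same 5 young female samples, so that any deviation of these moves both.

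A synthesis rate, in arbitrary units, and a half-life, read as hours, were given for each gene and group. Their product divided by ln 2 is called here the implied level, in arbitrary units. It equals the amount of RNA only if that amount was steady during labelling. Levels of different genes are not compared, since scaling for transcript length was not given in the sources used here; sums over marker lists, given below to describe the groups, are likewise weighted by unscaled levels. A ratio is called past the threshold at an absolute log2 value of at least 1, a 2-fold difference.

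Chondrocyte markers were present as labelled, with 11 of 12 listed, among them ACAN, COL2A1 and SOX9, while MATN1 had no row. Leukocyte markers PTPRC, CD68, CD163, CSF1R and LYZ, endothelial markers PECAM1, CDH5 and KDR, and synovial markers PRG4 and CLIC5 also had no row, and CD14, VWF and HBEGF did. Markers of fibroblasts and dedifferentiated cells moved with both contrasts. Their implied levels were lower in old cells for 5 of 5 listed (49.3% of all genes), with a summed level of 78334 against 158152, and higher in young male cells for 6 of 6 (50.5%), with 378702 against 151083. COL3A1 made up 71.4 to 84.4% of these sums, so they describe that gene more than the list; the median log2 level ratios of the list were −1.12 (old) and 1.82 (male). Of 5 osteoblast markers 3 were listed, and SP7 and BGLAP had no row. Their levels were higher in male cells for 3 of 3, with IBSP (2.19) and ALPL (2.61) past the threshold, where 50.5% of all genes were higher and 4.61% past it. The summed level was 21616 against 4152, with ALPL at 56.2% of the male sum. In old cells 2 of 3 were higher (50.7% of all genes) and the sum was 5170 against 4349, with IBSP at 71.1% of the old sum. The summed level of the 11 chondrocyte markers was 1707840 in old against 1871470 in young female cells, and 4492210 in male against 1786830 in young female cells. COMP made up 37.1% of the old sum, COL2A1 33.9% of the male sum and ACAN 35.5% of each young female sum. Levels of the 11 were lower in old cells for 6 (49.3% of all genes) and higher for 5 (50.7%), with a median log2 ratio of −0.13. COMP was at 0.83, and HAPLN1, at −1.01, was past the threshold (4.12% of all genes). Among the lower ones, ACAN was at −0.48, COL2A1 at −0.63 and COL9A1 at −0.97. In male cells the levels of these markers were higher for 10 of 11 (50.5% of all genes), with a median of 1.497. Past the threshold were 7 of 11 (4.61% of all genes). Of their male half-lives 8 of 11 were over 24 h and 5 at the ceiling of 69.3 h, and of all shared genes of 10 h or more 88.2% were higher in male cells. The part of these shifts in the values below was not tested. In cultures of this kind fewer cells of a type and less RNA per cell cannot be told apart, and the same holds for batch and group: of 12 batch labels over 13 samples, only 1 was shared between groups, by 1 young female and 1 young male sample, and the tables give no values per sample.

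The reference column of the age table is headed as young only and was read as young female; the members' half-lives in it were nearly those of the young female column of the sex table. Half-lives differed by less than 0.05 log2 units for 32 of 33 members, and the largest difference was 0.07 for CHST7. Synthesis rates and implied levels each had a median absolute difference of 0.07, a near-constant offset for the levels, and the largest difference in synthesis rate was 0.14, for CHST7. These differences hold no variation between animals.

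In old female cells nearly all of these enzymes had a lower implied level than in young female cells, by small steps. The level was lower for 31 of 33 members, against 49.3% of all genes, and the median log2 ratio was −0.28, against 0.0048. NDST1 (0.25) and DSEL (0.04) were the members with a higher level. Taking young female values from the sex table instead, 26 of 33 were lower, against 40.2% of all genes, and the median was −0.21. Past the threshold was 1 member, CHST7, with 4.12% of all genes past it, 1.99% downward. CHST7 dropped out, leaving 0, when the filter kept the 75% of genes with the highest synthesis rates (2.46% of genes). At a threshold of 0.5, 12 of 33 members were past it downward and 0 upward, against 7.37% and 8.19% of all genes (15.6% in either direction).

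Half-lives and synthesis rates were both mostly lower. Half-lives were shorter in old cells for 26 of 33 members, against 63.1% of all genes, with a median log2 ratio of −0.23 against −0.08. Synthesis rates were lower for 22 of 33, against 39.8% of all genes, with a median of −0.18 against 0.08. HAS2 alone was past the threshold in each of these, 1 of 33 members, with 3.53% of all genes past it for half-life and 7.52% for synthesis rate, so the members' share was near or under the background. At 0.5 there were 7 of 33 members for half-life (13.4% of all genes), 7 of them downward (8.88%). For synthesis rate there were 4 (23.0%), 3 upward and 1 downward, against 14.8% and 8.18% of all genes.

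In young male cells the members lay close to all genes. Half-lives were longer than in young female cells for 26 of 34 members, with 77.3% of all genes longer, and the median log2 ratio was 0.32, with 0.27 for all genes. Synthesis rates were lower for 24 of 34 members, with 71.1% of all genes lower, and had a median of −0.16 against −0.28, which became 0.12 once the median of all genes was subtracted. The implied level was higher for 20 of 34 members, with 50.5% of all genes higher. Its median was 0.06 against 0.0051 for all genes, and it turned to −0.0041 when young female values came from the age table. Past the threshold were 0 of 34 members in half-life (7.58% of all genes), 2 in synthesis rate (12.2%) and 0 in level (4.61%). At 0.5, 10 members passed by half-life (31.8% of all genes did), 9 by synthesis (41.1%) and 6 by level (25.0%), shares close to or under those of all genes. The 2 for synthesis rate, DSEL and HS6ST2, became 0 after centring on the median of all genes (9.87%) or within deciles of half-life (8.67%). The deciles left out HS6ST2, which is only in the sex table, so there only DSEL (−0.85) moved under the threshold by centring. The count became 1, DSEL, with half-lives of 1 to 24 h (9.33%) or with the upper 75% of genes by synthesis rate (8.95%). For half-life, centring within deciles put 1 member, CHST7, past the threshold (4.70%). Whether the age and sex ratios differ from each other was not tested, because group values allow no such test.

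**Figure D1:**
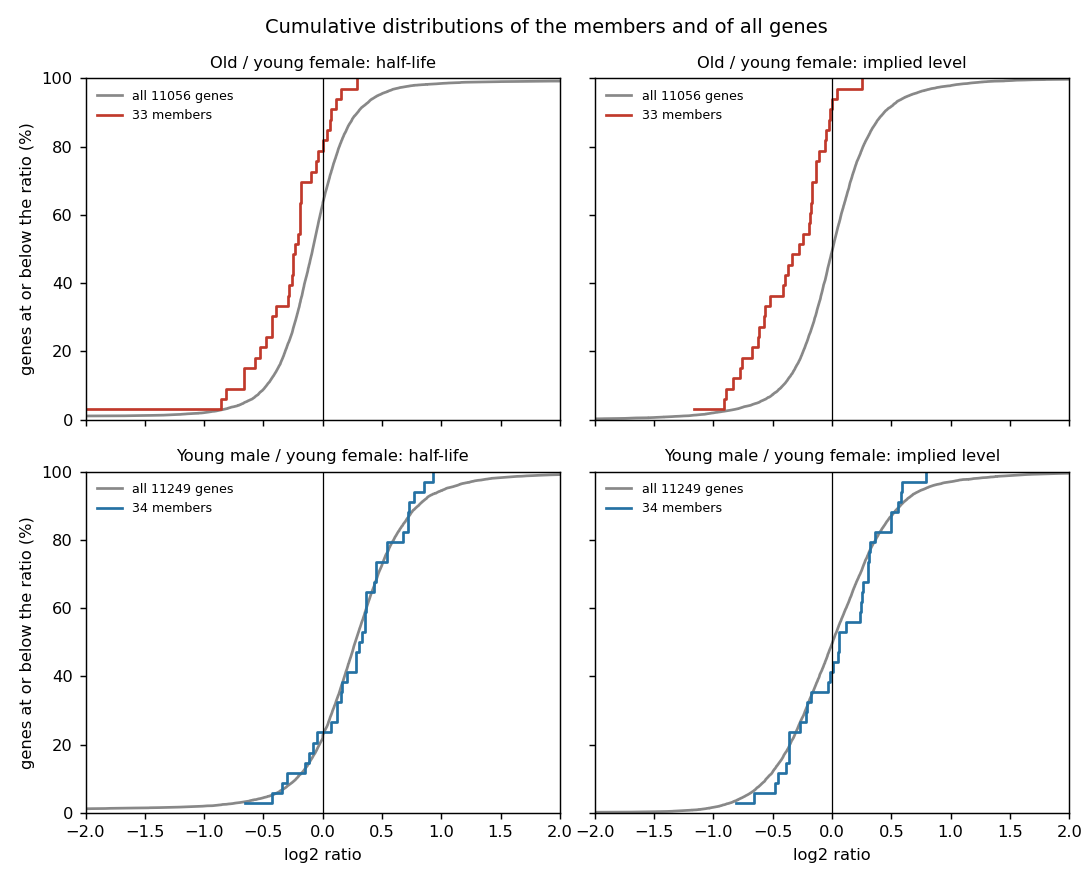
Cumulative share of genes (y axis, %) at or below a given log2 ratio (x axis, drawn from −2 to 2) of half-life, left, and implied level, right. The upper panels show old against young female and the lower panels young male against young female cells, with all genes of each table in grey and the members in colour. The implied levels of the members lie to the left of all genes in old cells, where 31 of 33 were under 0, and near all genes in male cells.

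The order of the members by RNA half-life was similar in the 3 groups. In young female cells of the age table their half-lives ran from 1.19 h for CHSY1 to 35.9 h for EXT2, with a median of 5.00 h, against 3.64 h for all genes. The median of these 33 was 3.79 h in old cells, against 3.43 h for all genes. Over the 34 members of the sex table it was 5.56 h in young female and 5.96 h in young male cells, against 3.74 and 4.63 h. Across members the Spearman correlation of half-lives between young and old female cells was 0.97 (n = 33), and that between young female and young male cells was 0.97 (n = 34), values that share the labelling and the estimation. A range of 1 to 24 h was chosen here as the one that 4 h of labelling would best resolve. It held for 32 of 33 members in young female, 31 of 33 in old and 30 of 34 in male cells. Of all genes, 9582 of 11056, 9359 of 11056 and 9238 of 11249 lay in this range in these groups. No member reached the ceiling of 69.3 h at which the tables stop. Few genes did, with 91 in young female, 87 in old and 291 in male cells.

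**Figure D2:**
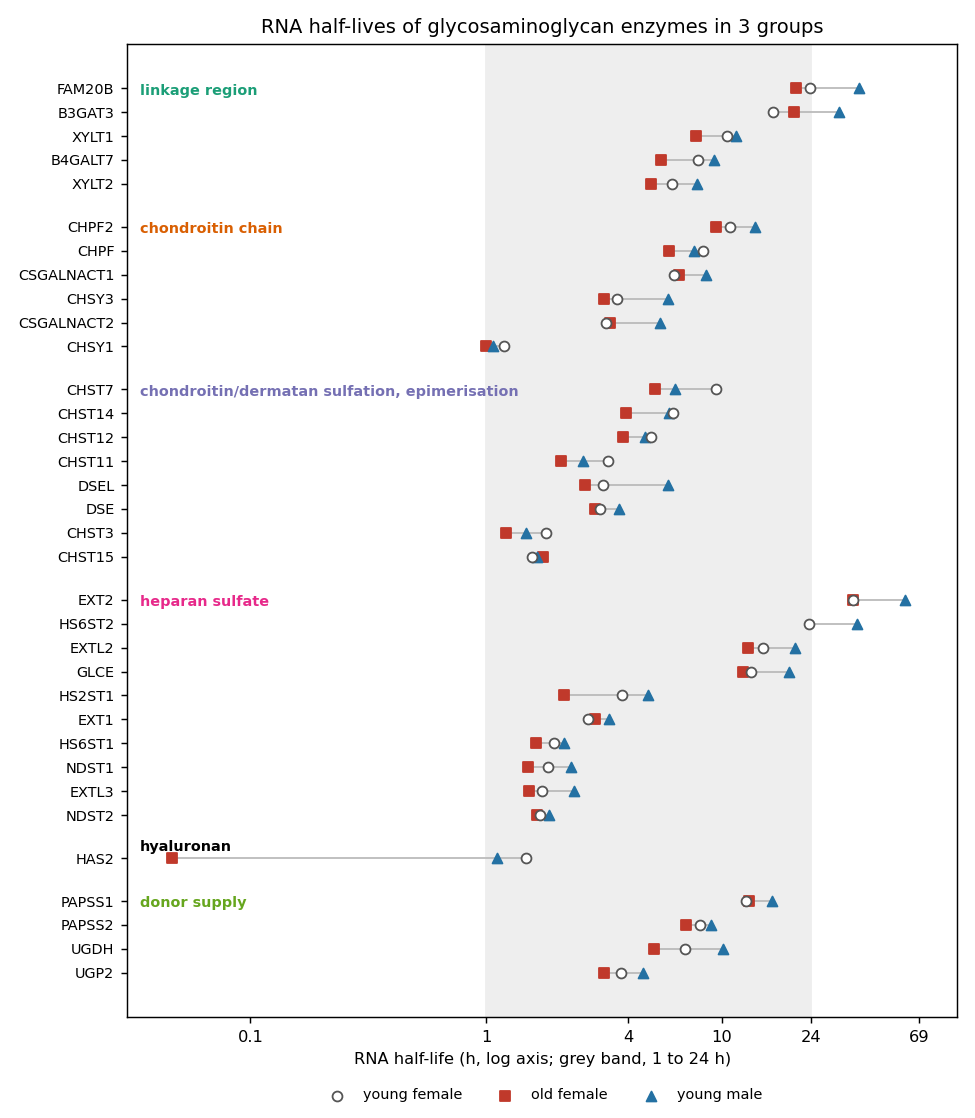
RNA half-lives (x axis, hours, log scale) of the 34 listed members, grouped by role, in young female (open circles), old female (squares) and young male (triangles) cells; each symbol is the authors' group value, and young female values are those of the age table except for HS6ST2. Grey lines join the groups of a gene and the grey band marks 1 to 24 h. HAS2 in old cells, at 0.0465 h, is the value that stands away from the rest.

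The linkage region enzymes had half-lives of 6.14 h or more in young female cells. All 5 listed had a lower implied level in old cells, against 49.3% of all genes, but only 3 of 5 did with the young female column of the sex table, which put B3GAT3 (0.07) and FAM20B (0.01) above 0. XYLT1 and XYLT2 are xylosyltransferases, which attach the first sugar to the core protein. XYLT1 had a synthesis rate of 2494 in young female and 1783 in old cells and a half-life of 10.5 and 7.79 h. Its implied level was therefore 1.88-fold lower in old cells (log2 ratio −0.91), and 2.44% of all genes had a lower ratio. In male cells its synthesis rate was 3066 against 2363 and its half-life 11.5 against 10.6 h, a log2 level ratio of 0.50. XYLT2 had half-lives of 6.14 h in young female, 5.01 h in old and 7.84 h in male cells, with log2 level ratios of −0.57 and 0.05. XYLT1 was thus lower in old and higher in male cells, both ratios being taken against the same young female samples.

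B4GALT7, the first galactosyltransferase of the linkage, had a half-life of 7.94 h in young female and 5.51 h in old cells, a log2 ratio of −0.53, and 9.25 h in male cells. B3GAT3, which adds the glucuronic acid that completes the linkage, had the highest half-life ratio of any member in male cells, 0.93 (31.5 against 16.5 h), just under the threshold. It was also the member with the highest log2 level ratio in male cells, 0.79, while its level in old cells was 3687 against 3689 in young female cells. FAM20B is the kinase that phosphorylates the xylose. Its half-life was 23.7 h in young female, 20.7 h in old and 38.1 h in male cells, and its log2 level ratios were −0.06 and 0.32. The male half-lives of B3GAT3 and FAM20B lie above 24 h, where little RNA is replaced within the labelling time.

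In chondroitin polymerisation CHSY1 differed in half-life from its partner subunits. The chain is extended by complexes of CHSY1 or CHSY3, which carry both transferase activities, with CHPF or CHPF2, their partner subunits. CHSY1 RNA was the shortest-lived of the members in young female cells, at 1.19 h, while that of CHPF lasted 8.31 h and that of CHPF2 10.8 h. The ratio of CHPF to CHSY1 half-lives was 6.99 in young female cells, 5.95 in old and 7.16 in male cells. The ratio of CHPF to CHSY3, the other partner, was smaller, at 2.30, 1.88 and 1.29, so the wide gap belongs to CHSY1. Given simple exponential turnover, 90.3% of CHSY1 RNA and 28.4% of CHPF RNA of young female cells would be replaced in 4 h.

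CHSY1 was lower in both comparisons, unlike the other chain enzymes. Its synthesis rate was 4953 in young female and 3484 in old cells, with half-lives of 1.19 and 1.00 h, giving a log2 level ratio of −0.76. In male cells the synthesis rate was 2994 against 4737 and the half-life 1.07 against 1.19 h, giving −0.81, the lowest level ratio of any member in that comparison. Both values rest on the same young female samples. The level ratios of the other 5 chain enzymes ran from −0.67 to −0.11 in old cells and from 0.31 to 0.59 in male cells. CHSY3 had −0.67 in old and 0.58 in male cells, the latter with a half-life of 5.92 against 3.60 h. CHPF and CHPF2 had level ratios of −0.17 in old cells each, and 0.36 and 0.59 in male cells. For CHPF in old cells this joined a higher synthesis rate (log2 ratio 0.31) to a shorter half-life (−0.48).

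CSGALNACT1 and CSGALNACT2 add the first N-acetylgalactosamine and so commit a linkage to chondroitin. In young female cells CSGALNACT1 had a half-life of 6.27 h and CSGALNACT2 one of 3.22 h. Both were close to these values in old cells, with 6.59 and 3.36 h, and longer in male cells, with 8.54 and 5.47 h. Their log2 level ratios were −0.11 and −0.13 in old cells and 0.49 and 0.31 in male cells.

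Most sulfotransferases of chondroitin and dermatan had shorter half-lives than in young female cells in both comparisons. Of the 6 listed CHST members, 5 were shorter-lived in old cells, where 63.1% of all genes were, and the median half-life ratio over the 6 was −0.61 (log2), against −0.08 for all genes. The same 5 had a shorter half-life in male cells, although 77.3% of all genes had a longer one. The median over the 6 was −0.19. Of the 5, CHST12 (−0.09) and CHST14 (−0.05) were only slightly shorter in male cells, and CHST3 (−0.30), CHST11 (−0.35) and CHST7 (−0.66) more so. The age and sex ratios rest on the same young female samples, and how much agreement this alone would give was not tested. DSE and DSEL, the other listed members of the role, had longer half-lives in male cells (log2 ratios 0.28 and 0.86). CHST15 was the exception, with 1.57 h in young female, 1.74 h in old and 1.64 h in male cells. None of the 6 was past the threshold for half-life in either comparison, and they were singled out within their role after their values were seen.

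CHST3 and CHST7 sulfate the 6 position of N-acetylgalactosamine. CHST3 had half-lives of 1.80 h in young female, 1.21 h in old and 1.48 h in male cells. Its synthesis rate was 1528 in young female and 1224 in old cells, and its implied level was 1.85-fold lower in old cells (log2 ratio −0.89) and 1.39-fold lower in male cells (−0.48). CHST7 had a half-life of 9.44 h in young female and 5.20 h in old cells and a synthesis rate of 26.7 and 21.6. Its implied level was 2.24-fold lower in old cells, a log2 ratio of −1.17, or −1.10 against the young female value of the sex table. In male cells the half-life of CHST7 was 6.31 against 9.94 h and its synthesis rate 37.6 against 24.2, and these balanced to a level ratio of −0.02.

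CHST11 and CHST12 sulfate the 4 position of the same sugar in chondroitin, and CHST14 does so in dermatan. CHST11 combined the highest synthesis ratio in old cells after HAS2, 0.65 (917 against 585), with a half-life of 2.08 against 3.29 h, and its level ratio was −0.02. In male cells its synthesis ratio was 0.41 and its half-life 2.58 h, with a level ratio of 0.06. CHST12 had half-lives of 5.00, 3.79 and 4.70 h in young female, old and male cells and level ratios of −0.62 and 0.30. CHST14 had half-lives of 6.21, 3.93 and 6.00 h and level ratios of −0.41 and 0.30. CHST15, which adds a further sulfate to residues already sulfated at the 4 position, had level ratios of −0.34 and −0.22.

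DSE and DSEL are the epimerases that turn chondroitin into dermatan by converting glucuronic to iduronic acid. Both had lower synthesis rates in male than in young female cells. DSEL was past the threshold, with a synthesis rate of 135 in male against 314 in young female cells, 2.33-fold lower (log2 ratio −1.22). Subtracting the median of all genes left −0.94, under the threshold. DSE had 2635 against 5042, a log2 ratio of −0.94, or −1.001 and past the threshold against the young female column of the age table. The half-life of DSEL was 5.89 against 3.25 h and that of DSE 3.67 against 3.02 h, and the level ratios were −0.36 and −0.66. In old cells their levels were close to those of young female cells, with log2 ratios of 0.04 for DSEL and −0.02 for DSE.

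Heparan sulfate enzymes had half-lives from 1.69 h (NDST2) to 35.9 h (EXT2) in young female cells. EXT1 and EXT2 form the polymerase complex of this chain. EXT1 RNA had a half-life of 2.69 h in young female, 2.91 h in old and 3.34 h in male cells, while EXT2 RNA had 35.9, 36.0 and 60.0 h. EXT2 thus exceeded EXT1 13.3-fold in young female, 12.4-fold in old and 18.0-fold in male cells. Under simple turnover 64.3% of EXT1 RNA and 7.43% of EXT2 RNA of young female cells would be made within the labelling period. The share of genes with a shorter half-life than EXT2 was 96.5% in young female cells, and values in this range are estimated from little labelled RNA. The level ratios were −0.18 and −0.21 for EXT1, and −0.05 and 0.56 for EXT2, in old and male cells.

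Of the EXTL genes, EXTL3, which starts the heparan chain, had half-lives of 1.73, 1.52 and 2.35 h in young female, old and male cells. Its synthesis rate was 561 in male against 971 in young female cells, a log2 ratio of −0.79, with a level ratio of −0.36. EXTL2 had half-lives of 14.9, 12.9 and 20.4 h and log2 level ratios of −0.52 (old) and 0.25 (male).

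The modifying enzymes act on the growing chain. NDST1 and NDST2 replace acetyl by sulfate groups and had short half-lives of 1.83 and 1.69 h in young female cells. NDST1 was the member with the highest level ratio in old cells, 0.25, from a synthesis rate of 1032 against 714 and a half-life of 1.51 against 1.83 h. NDST2 had level ratios of −0.20 and −0.03 in old and male cells. GLCE, the epimerase of the heparan chain, had half-lives of 13.3, 12.4 and 19.3 h and level ratios of −0.57 and −0.18.

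HS2ST1, the 2-O-sulfotransferase of heparan, had the lowest half-life ratio in old cells after HAS2 and CHST7, −0.82. Its half-life was 3.77 h in young female and 2.14 h in old cells, while the synthesis rate was 347 and 358, log2 ratios of −0.82 and 0.05 that add to a level ratio of −0.77. In male cells its half-life was 4.84 h and its synthesis rate 188 against 332, and the level ratio was −0.46. HS6ST1, a 6-O-sulfotransferase, had half-lives of 1.93, 1.62 and 2.15 h and level ratios of −0.62 and 0.12. HS6ST2, of the same family, was past the threshold for synthesis in male cells, with 1.78 against 3.73 (log2 ratio −1.06, or −0.78 after subtracting the median of all genes). Its half-life was 37.4 h there and 23.4 h in young female cells. All 10 heparan genes had a longer half-life and a lower synthesis rate in male cells, directions shared by 77.3% and 71.1% of all genes.

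HAS2, the hyaluronan synthase listed, had by far the largest ratios of any member in old cells. Its half-life was 1.48 h in young female and 0.0465 h in old cells, 31.7-fold shorter (log2 ratio −4.99). Its synthesis rate was 171 in young female and 4928 in old cells, 28.9-fold higher (4.85). The implied level, 363 in young female and 331 in old cells, was nearly equal, with a log2 ratio of −0.14. In male cells the half-life was 1.11 against 1.49 h, the synthesis rate 169 against 161 and the level ratio −0.36.

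The old half-life of HAS2 lies far below what 4 h of labelling can resolve. Under simple turnover 84.7% of HAS2 RNA would be new after 4 h in young female cells, and for the old half-life the share rounds to 100%. A change of 31.7-fold in half-life therefore rests on the last part of the labelled share. HAS2 also fell into a separate cluster of very short half-lives: in old cells 129 genes were listed under 0.1 h and 20 between 0.1 and 0.5 h, against 767 between 0.5 and 1 h. Of the 129, 49 had a half-life of 1 to 24 h in young female cells, as HAS2 did. Half-lives under 0.1 h were also listed for 99 genes in young female cells of the same table and for 128 in male cells, where 53 lay between 0.1 and 0.5 h. With half-lives of 1 to 24 h required in both groups HAS2 dropped out, and 0 of 31 members were past the threshold for half-life (0.889% of all genes) or for synthesis rate (4.73%).

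The donor supply genes had a lower implied level in old cells in 4 of 4 cases, against 49.3% of all genes. Their synthesis rates were lower in 4 of 4 (39.8% of all genes), or in 3 of 4 with the young female column of the sex table, since UGP2 had 2333 in old cells against 2347 or 2240. UGDH makes the glucuronic acid donor UDP-glucuronate from UDP-glucose, which UGP2 supplies. UGDH had a synthesis rate of 813 in young female and 612 in old cells and half-lives of 6.95 and 5.18 h, giving a level 1.78-fold lower (log2 ratio −0.83). In male cells its synthesis rate was 442 against 777 and its half-life 10.1 against 6.94 h, with a level ratio of −0.27. UGP2 had half-lives of 3.73, 3.17 and 4.63 h in young female, old and male cells and level ratios of −0.24 and 0.06. PAPSS1 and PAPSS2 make the sulfate donor PAPS, and PAPSS2 is the form linked to skeletal growth. PAPSS1 had half-lives of 12.7, 13.1 and 16.3 h and level ratios of −0.17 and 0.24, and PAPSS2 had 8.05, 7.03 and 9.00 h and −0.37 and 0.01.

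**Figure D3:**
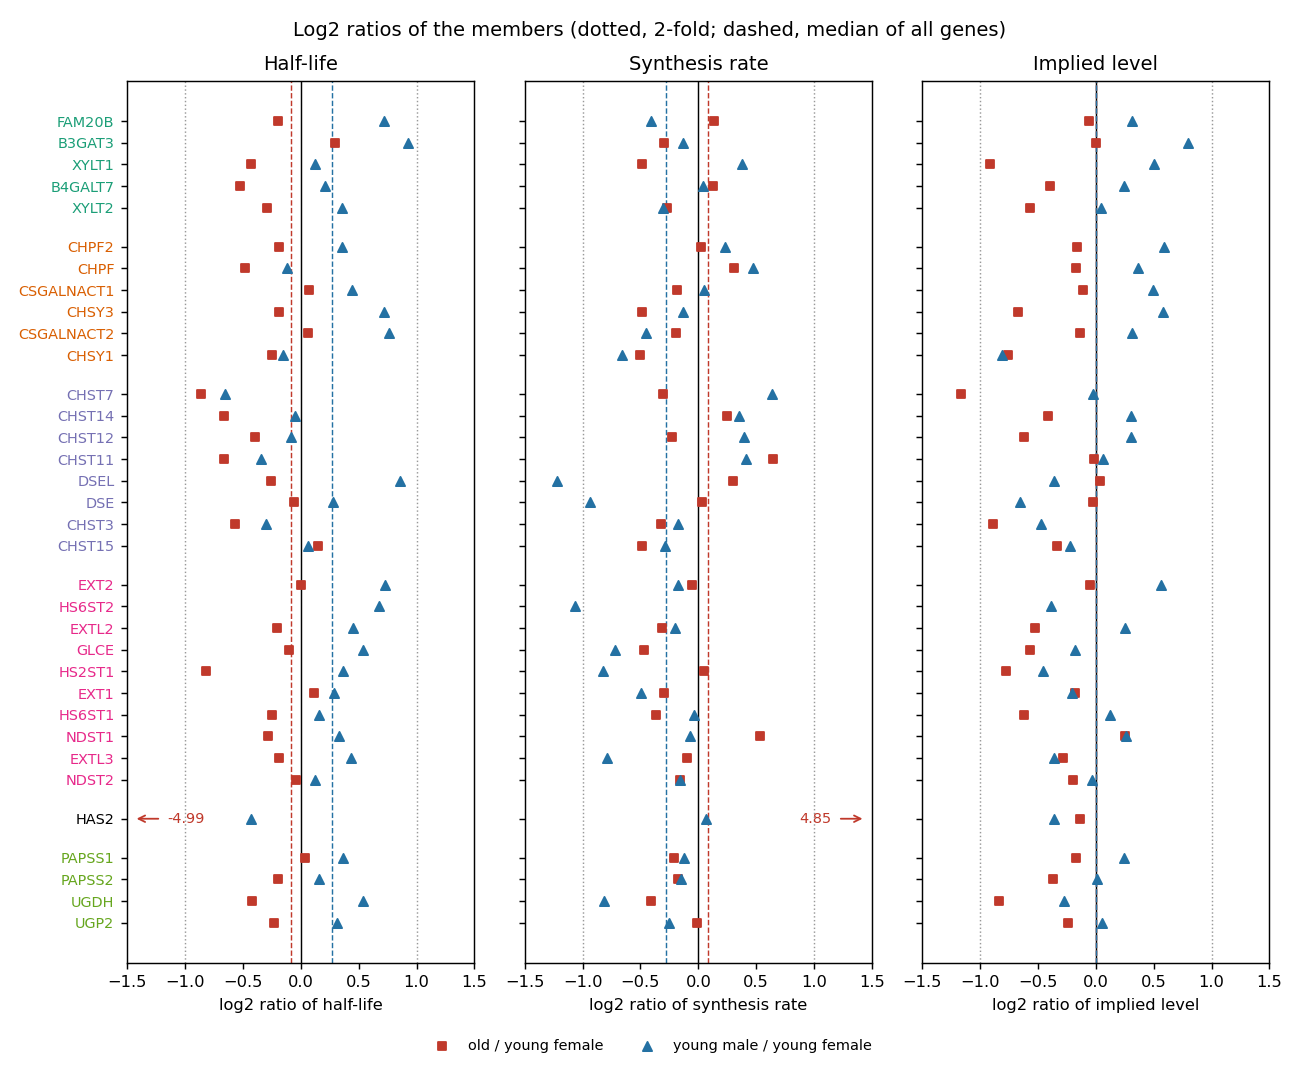
Log2 ratios (x axes) of half-life, synthesis rate and implied level for the 34 listed members, with gene names coloured by role; squares give old against young female and triangles young male against young female cells, each from the authors' group values. Dotted lines mark the 2-fold threshold, dashed lines the median of all genes, and arrows the HAS2 values of −4.99 and 4.85 that lie outside the axes. Squares of the implied level fall to the left of 0 for all but NDST1 and DSEL.

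Synthesis and half-life ratios tended to oppose each other within the members. The Spearman correlation across members was −0.31 in the age comparison (n = 33; −0.24 without HAS2) and −0.55 in the sex comparison (n = 34), against −0.53 and −0.55 across all genes. Both ratios come from the same libraries, so their errors are not independent.

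The sex ratio of implied level tended to be higher for members of longer half-life, as it did across all genes. Members were ordered by their half-life in old cells, a value that does not enter the sex ratio. Among the 13 members under 3 h, the male level was higher for 3, with 24.6% of all shared genes in that range, and the median log2 level ratio was −0.36 against −0.24. Among the 14 members of 3 to 10 h it was higher for 12, with 61.3% of all shared genes, and the median was 0.30 against 0.09. Of the 6 members of 10 h or more, 5 were higher, with 88.2% of all shared genes, and the median was 0.28 against 0.36. The members' synthesis ratios showed no such order. Their median log2 values in these ranges were −0.29, 0.04 and −0.19, against −0.37, −0.27 and −0.11 for all shared genes. Across the 33 members the Spearman correlation of the sex level ratio with the old half-life was 0.64, against 0.60 for all 10974 shared genes. In the age comparison, with members ordered by the male half-life, it was 0.08, against −0.02. After centring within deciles of half-life, the male medians of the members were −0.0057 for half-life and 0.0070 for implied level.

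**Figure D4:**
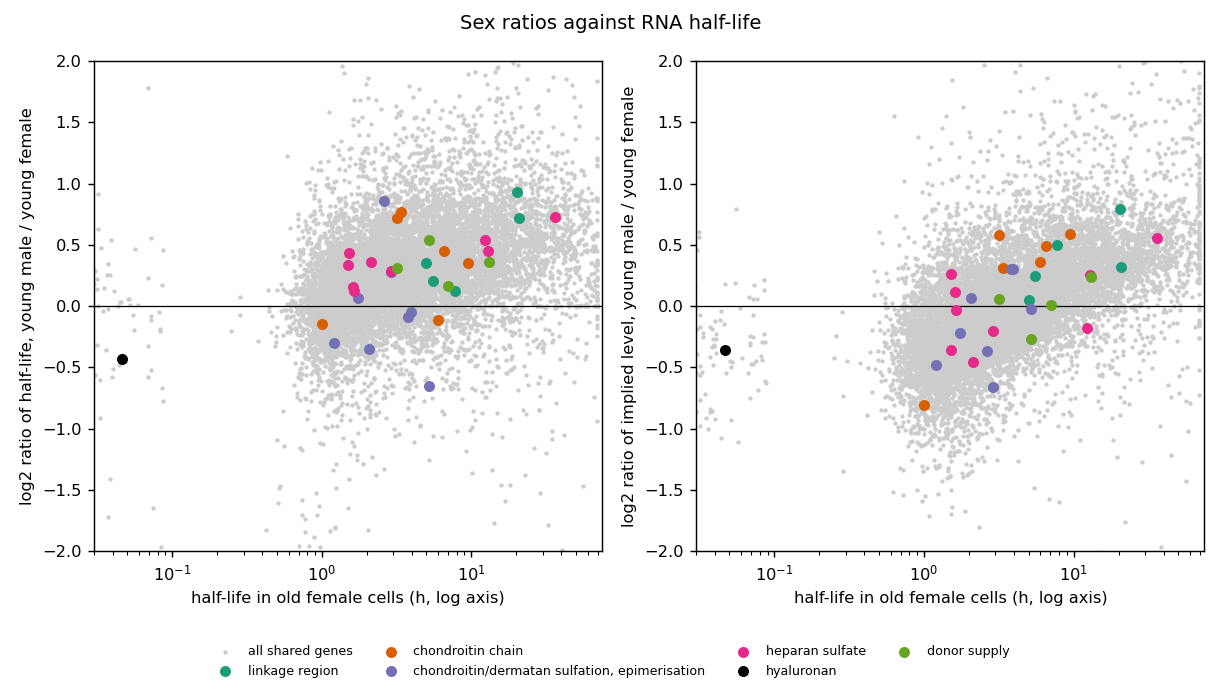
Log2 ratio of young male to young female cells (y axes, drawn from −2 to 2) of half-life, left, and implied level, right, against the half-life in old female cells (x axes, hours, log scale) for genes in both tables; points are the authors' group values, grey for all shared genes and coloured by role for the 33 members. The members lie within the cloud of all genes, with Spearman correlations of 0.46 and 0.64, and HAS2 lies in the sparse cluster at the far left.

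Other genes of the pathway were taken from a list of 38 precursor, transport, chain and sulfation symbols outside the members, of which 28 were listed; IMPAD1 and BPNT2 are names of one gene, listed under BPNT2. Their implied level was lower in old cells for 23 of 28, against 49.3% of all genes, with a median of −0.32 on the log2 scale. In male cells it was higher for 18 of 28, against 50.5% of all genes, with a median of 0.12. Past the threshold for level were 1 in old cells, SLC35D1 (4.12% of all genes were), and 1 in male cells, UAP1 (4.61%), both downward. SLC35D1 carries sugar nucleotides of chondroitin into the secretory pathway, and its level was 2.22-fold lower in old cells (log2 ratio −1.15). UAP1 makes UDP-N-acetylglucosamine, and its synthesis rate was lower in old cells (1824 against 4269, log2 ratio −1.23) and in male cells (1198 against 4079, −1.77). Its level ratios were −0.89 and −1.25.

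For synthesis rate, 3 of the 28 were past the threshold in old cells (7.52% of all genes), HS3ST3B1 upward and UAP1 and SLC35D2 downward. In male cells 2 were (12.2%), UAP1 and GNPNAT1, both downward. For half-life there were 2 in old cells (3.53%), SLC35D2 upward and HS3ST3B1 downward, and 0 in male cells (7.58%). HS3ST3B1, a 3-O-sulfotransferase of heparan, repeated the form of HAS2: its half-life was 0.682 h in young female and 0.0435 h in old cells, its synthesis rate 5522 and 93641, and its log2 level ratio 0.11. The sulfate transporter SLC26A2 had level ratios of −0.24 (old) and −0.17 (male). SLC26A1, of the same list, went the other way, with 0.29 and 0.51.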

How the data were processed

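RNA labelled with 4sU for 4 h was treated with iodoacetamide for 15 min and sequenced as poly(A) libraries, per the labels' protocols. The submitters' processing notes name cutadapt 4.5, STAR 2.5.3 and EquCab3.0; the kinetic model is not given in the sources used here. The deposited tables, one per comparison, hold the authors' synthesis rate and half-life for each gene as 1 value per group. Units are not stated: half-lives were read as hours, since values stop at 69.3, a decay of 0.01 per h. There were 0 columns of values per sample, so depth is unknown and no test was possible.

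Log2 ratios, implied levels and shares of new RNA after 4 h were computed from these deposited values with Python 3.11.15, pandas 2.3.3, NumPy 2.4.6 and SciPy 1.17.1, and the code was tested on simulated data. Every listed member is named, and those past the threshold in full; other pathway genes are given as counts, and some past it are named. The members and gene lists were chosen with earlier results of these data known, and the share of new RNA and the half-life deciles were added after the data were seen. Alternatives were a threshold of 0.5, centring, half-lives of 1 to 24 h, a filter on low synthesis, leaving out half-lives at the ceiling, and the other table's young female values. No sequences or coordinates were used here.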

Additional observations from a re-analysis of the deposited data

How the results depend on the processing

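In the age comparison the median log2 ratio of half-life moved from −0.23 to −0.15 after centring on the median of all genes and to −0.15 within half-life deciles. That of implied level moved from −0.28 to −0.34 with half-lives of 1 to 24 h and to −0.21 with the young female column of the sex table. That of synthesis rate moved from −0.18 to −0.26 centred, −0.24 in deciles and −0.12 with that column. In the sex comparison the half-life median moved from 0.32 to 0.048 centred and turned to −0.0057 in deciles. The implied level median moved from 0.06 to 0.0070 in deciles and turned to −0.0041 with the age table's young female column. The synthesis median turned from −0.16 to 0.12 centred and 0.094 in deciles, and moved to −0.22 with that column. Centring subtracts the shift of all genes by construction; for the other moves the cause was not tested.

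Counts past the threshold moved as follows. At 0.5 they were 7 (half-life), 4 (synthesis rate) and 12 (implied level) of 33 in the age comparison and 10, 9 and 6 of 34 in the sex comparison. With half-lives of 1 to 24 h, which leaves fewer genes, they were 0 for half-life and 0 for synthesis rate by age, and 1 for synthesis rate by sex. With the upper 75% by synthesis rate they were 0 for implied level by age and 1 for synthesis rate by sex. Centring gave 0 for synthesis rate by sex, as did deciles, which left out HS6ST2 and gave 1 for half-life by sex. The remaining alternative counts stayed within 1.5-fold of those reported and the remaining medians within 0.05. Leaving out half-lives at the ceiling removed no member and so could change nothing here. A count can hold other genes: the 2 for synthesis rate by sex were DSE and DSEL with the age table's young female column, which has no HS6ST2. No paired analysis was possible because each group has 1 value per gene and no values per sample. Depth behind any value is unknown.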

Other observations

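Genes on the other side of glycosaminoglycan turnover were taken from the same set of lists. Of 12 lysosomal enzymes that break the chains down, 11 were listed, and NAGLU had no row. Their implied level was higher in young male than in young female cells for 11 of 11 (50.5% of all genes), with a median log2 ratio of 0.57. All 11 had half-lives of at least 16.4 h in old cells, and of all shared genes of 10 h or more 88.2% were higher in male cells, with a median of 0.36; 3 of the 11 male half-lives were at the ceiling of 69.3 h. Past the threshold for half-life was 1 of 11 (7.58% of all genes), IDS, the sulfatase of iduronate residues, with 40.7 h in male against 19.9 h in young female cells. In old cells the median level ratio of these enzymes was −0.0034, with 5 higher and 6 lower (50.7% and 49.3% of all genes). Past the threshold for level in old cells were 0 of 11 (4.12% of all genes). Of 9 genes of extracellular remodelling 5 were listed. Their level was higher in old cells for 3 of 5 (50.7% of all genes) and in male cells for 4 of 5 (50.5%). Past the threshold were 0 in both comparisons, against 4.12% and 4.61% of all genes. Log2 level ratios in old and male cells were 0.80 and 0.48 for SULF1, which removes sulfate from heparan chains outside the cell. CEMIP, which takes part in hyaluronan breakdown, had 0.55 and 0.82, while CEMIP2 had −0.28 and −0.31. SULF2 had −0.06 and 0.13, and HYAL3 had 0.07 and 0.46.

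Of 20 core proteins and receptors that carry or bind the chains, 15 were listed. In old cells the implied level was past the threshold for 4 of them, against 4.12% of all genes: it fell for CSPG4 (log2 ratio −1.85), VCAN (−1.68) and CD44, a hyaluronan receptor (−1.06), and rose for DCN (1.35). In male cells it was past it for 3, against 4.61%, and rose for BGN (1.77), DCN (1.37) and VCAN (1.23). VCAN had low synthesis rates, 4.71 in young and 2.75 in old female cells. In the sex comparison they were 4.88 in young female and 19.8 in male cells. CHST7, which the filter on low synthesis left out, had 26.7 and 21.6 in young and old female cells. Half-lives at the 69.3 h ceiling enter the ratios of VCAN in old cells (its young female value) and of BGN and DCN in male cells (their male values), so these ratios rest on capped values. For synthesis rate 2 of 15 were past the threshold in old cells (7.52% of all genes), CSPG4 (−1.10) and SDC1 (−1.60). In male cells 5 of 15 were (12.2%): VCAN (2.02) and BGN (1.63) upward and SDC1 (−1.09), GPC4 (−1.07) and SRGN (−1.04) downward. The male half-lives of BGN, GPC4 and SRGN were at the ceiling. Synthesis rates were also low for SDC1 (20.3 in young and 6.71 in old female cells) and GPC4 (25.8 in young female and 12.3 in male cells). For half-life 2 of 15 were past the threshold in male cells (7.58%), SDC1 (1.09) and GPC4 (1.42), the latter at the ceiling. ACAN, the main core protein of cartilage, had a level ratio of −0.48 in old cells and one of 0.95 in male cells. These are single group values, and markers of fibroblasts and dedifferentiated cells moved with both contrasts, and those of chondrocytes (10 of 11 higher in level in male cells, median 1.497) and osteoblasts with the sex contrast; their part in these values was not tested.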
